A study of Homo sapiens with 8 samples.

Results

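HOX genes encode homeodomain transcription factors that give cells their position along the body axis. The genes examined here were the 38 listed members of the HOXA cluster on chromosome 7, the HOXB cluster on chromosome 17, the HOXC cluster on chromosome 12 and the HOXD cluster on chromosome 2, out of 63241 gene rows in the deposited table. They were matched by Ensembl identifier without its version, and all 38 were found. Members are named by cluster letter and by paralog group, a number from 1 to 13 that follows their order in the cluster.

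In the embryo the low-numbered genes are switched on first and furthest forward, in the hindbrain and pharyngeal arches, and the high-numbered genes later and further back, in the trunk, limbs and genital region. The cranial neural crest that builds the jaw normally carries no HOX transcripts, while muscle, connective tissue and epithelia of the trunk and limbs keep the HOX pattern of the place where they arose. HOX proteins bind DNA together with PBX and MEIS homeodomain partners. Polycomb complexes hold silent HOX genes shut, trithorax (MLL) complexes keep active ones open, and retinoic acid switches on the low-numbered end of each cluster.

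According to the labels, the study transfected HSC3 cells, a line from a human oral squamous cell carcinoma, with 100 pmol of siRNA by a lipid reagent and collected RNA 48 h later. Of the 8 libraries, 4 received si-Col1a1, against the gene for the collagen type I alpha chain, and are labelled knockdown. The other 4 received si-NC, a negative control siRNA, and are labelled control. The labels give total RNA freed of ribosomal RNA in the protocol and polyA RNA as the molecule, and they do not say whether replicates were grown separately. The p-values below therefore speak of the spread among these libraries, which may be technical.

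The libraries held between 30684584 and 61795990 counts, and a level of 3 counts, used as the detection floor, came to between 0.0485 and 0.0978 CPM, the count scaled to the library's column total. Below, knockdown and control name the labels, and a pair of value series gives knockdown 1 to 4 first and control 1 to 4 second. The siRNA target COL1A1 stood at 368, 123, 301 and 155 CPM in the libraries labelled knockdown 1 to 4 and at 88.9, 8183, 476 and 689 CPM in those labelled control 1 to 4, so the library labelled control 1 lay below all 4 labelled knockdown. All 10 squamous epithelium markers had counts in every library, but they took 12.9%, 8.59% and 10.7% of counts in knockdown 1, 3 and 4 and 5.50%, 1.94% and 3.77% in control 2, 3 and 4. In knockdown 2 they took 0.0955% and in control 1 they took 0.0465%. Skeletal muscle markers (11 of 12 matched, all 11 with at least 1 count in every library) took 0.0029% to 4.18% of counts under the knockdown label and 0.0028% to 13.2% under the control label. Salivary gland markers (12 of 12 matched, 6 to 12 with at least 1 count) took 0.00039% to 9.72% and 0.00012% to 11.7%. The muscle regulators PAX7, MYF5, MYF6, MYOD1 and MYOG were all at 0 in knockdown 1, knockdown 3 and control 4, and each had at least 1 count in the other 5 libraries. Muscle and gland transcripts at these shares go against the label of a carcinoma cell line. Whether all 8 libraries are HSC3 cells is therefore in doubt, and so is what each HOX level and comparison of labels below refers to. Of the genes with 1 to 20 counts in a library, 65.3% to 72.6% had an even count, and 2.22 to 3.12 times as many genes had 2 counts as had 1. Of the 110 HOX values in that range 87 were even. Such a pattern arises when both mates of a read pair are counted, so intervals that treat each count as independent are too narrow.

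Promoter sequence is shown for 4 HOXD genes, because the HOXD cluster holds both members that were read in every library and members that were at 0 in several. HOXD8 and HOXD3 had counts in all 8 libraries, whereas HOXD13 was at 0 in 4 libraries and HOXD11 at 0 in 3. HOXD11 and HOXD13 were singled out after their values were seen. Each run is 200 bases of the plus strand of chromosome 2 in RefSeq's GRCh38.p14, read 5′ to 3′ and free of annotated exon bases. It ends at the base before a RefSeq start, or 12 bases before it for HOXD8. The starts of HOXD11 and HOXD3 lie inside the longer GENCODE gene spans. Capitals mark TAAT, the core of the homeodomain site, on either strand; TAATTA holds one on each strand.

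HOXD13, chr2:176092521-176092720: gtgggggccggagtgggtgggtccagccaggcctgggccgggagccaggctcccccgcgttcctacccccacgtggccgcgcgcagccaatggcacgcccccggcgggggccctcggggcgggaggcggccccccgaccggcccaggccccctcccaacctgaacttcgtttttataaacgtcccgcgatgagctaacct
HOXD11, chr2:176107080-176107279: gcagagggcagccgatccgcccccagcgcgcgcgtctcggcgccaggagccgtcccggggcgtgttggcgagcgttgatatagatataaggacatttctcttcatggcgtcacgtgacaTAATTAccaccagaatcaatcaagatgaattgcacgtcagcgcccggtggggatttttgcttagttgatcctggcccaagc
HOXD8, chr2:176129494-176129693: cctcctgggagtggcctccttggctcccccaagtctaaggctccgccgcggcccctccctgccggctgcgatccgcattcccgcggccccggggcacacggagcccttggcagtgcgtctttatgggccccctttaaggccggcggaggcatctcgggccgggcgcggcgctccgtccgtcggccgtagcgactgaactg
HOXD3, chr2:176157107-176157306: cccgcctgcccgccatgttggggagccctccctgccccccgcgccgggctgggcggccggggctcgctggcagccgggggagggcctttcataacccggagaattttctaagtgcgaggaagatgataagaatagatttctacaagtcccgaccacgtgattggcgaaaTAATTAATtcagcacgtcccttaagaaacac

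These windows were rich in CpG dinucleotides, with 20 for HOXD13, 18 for HOXD11, 23 for HOXD8 and 15 for HOXD3, against a median of 9 over 35116 promoter windows of the same length. Their GC content was 74%, 57.5%, 72.5% and 59%, against a median of 59%. TAAT occurred 2 times in the HOXD11 window and 3 times in the HOXD3 window and was not found in the HOXD13 and HOXD8 windows; 40.7% of all windows hold it on either strand. The HOXD13 window held TATAAA 2 times and TTTAT 2 times, counting both strands, all within 1 overlapping stretch; 8.59% and 27% of all windows hold these motifs. A RefSeq promoter window was given for 20 of the 38 genes. A match describes the letters only and is not a binding site.

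HOX transcripts were present in these libraries at low levels, and their total ranged from 2.67 to 72.4 CPM between single libraries, with high and low libraries under both labels. The 38 genes together stood at 41.1, 2.67, 39.5 and 15.6 CPM in knockdown 1 to 4 and at 12.6, 72.4, 6.85 and 60.6 CPM in control 1 to 4. The high libraries were knockdown 1, knockdown 3, control 2 and control 4, so both labels held 2 high and 2 low libraries and the groups overlapped. Group means were 24.7 ± 18.8 CPM for knockdown and 38.1 ± 33.2 CPM for control (SD, n = 4). The lowest sum rested on 82 counts, with an exact Poisson 95% interval of 2.13 to 3.32 CPM, and the highest on 4472 counts, with an interval of 70.3 to 74.5 CPM. In bulk libraries such as these, fewer cells of a type and less RNA per cell cannot be told apart.

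**Figure D1:**
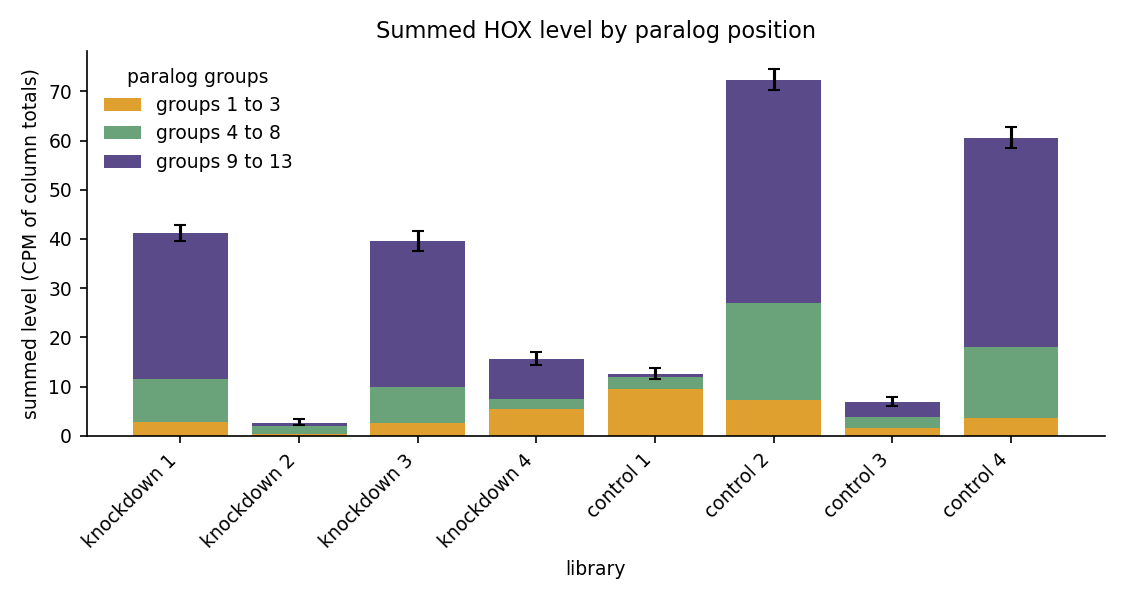
Summed level of the 38 HOX genes in each library, in CPM of the column total (vertical axis), stacked by paralog groups 1 to 3, 4 to 8 and 9 to 13, with exact Poisson 95% intervals of the total. Knockdown 1 (41.1 CPM), knockdown 3 (39.5), control 2 (72.4) and control 4 (60.6) stand above the other 4 libraries, mostly through groups 9 to 13.

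Across the clusters, 22 of 38 genes reached 1 CPM in at least 1 library and 16 stayed below it in all 8. The number of genes at 1 CPM or more was 10, 0, 8 and 5 in knockdown 1 to 4 and 4, 16, 2 and 14 in control 1 to 4. That is 0% to 42.1% of the HOX genes, against 22.2% to 27% of all rows in the same libraries. Only HOXB8 had no count in any library, which allows up to the floor of 3 counts in each, and 7 genes had a count in all 8: HOXB2, HOXB3, HOXB4, HOXD3, HOXD4, HOXD8 and HOXD9. Control 2 held the highest level of 15 members and control 4 of 9, while knockdown 2 held the highest of none.

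**Figure D2:**
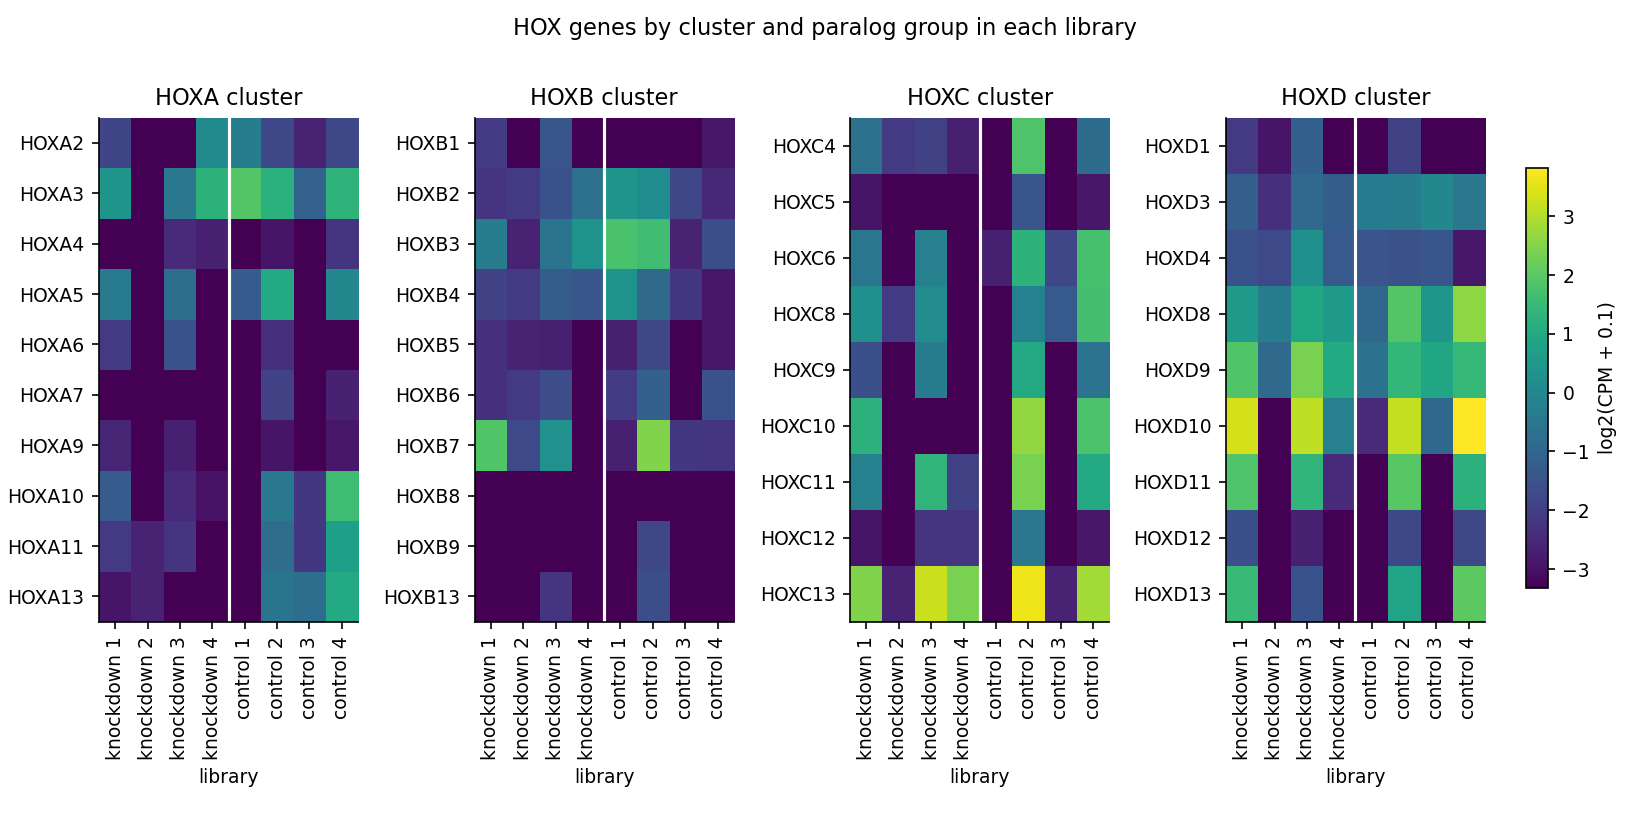
Level of each HOX gene (rows, by cluster and position) in each library (columns), as log2 of CPM plus a pseudocount of 0.1. The brightest rows, with the highest levels, are HOXC13 and HOXD10; HOXD10 stands above 8 CPM in knockdown 1, knockdown 3, control 2 and control 4 and below 1 CPM in the other 4 libraries.

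By position, the libraries differed in which end of the clusters was read. The 16 genes of paralog groups 9 to 13 summed to 29.7, 0.65, 29.7 and 8.20 CPM in knockdown 1 to 4 and to 0.63, 45.4, 2.98 and 42.5 CPM in control 1 to 4. They made up 72.2%, 75.2%, 62.8% and 70.2% of HOX counts in knockdown 1, knockdown 3, control 2 and control 4. In control 1 they made up 4.95% (Wilson 95% interval 3.32% to 7.31%), the lowest share of the 8.

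The 7 genes of groups 1 to 3 summed to 2.81, 0.33, 2.52 and 5.34 CPM in knockdown 1 to 4, and in control 1 to 4 to 9.54, 7.33, 1.58 and 3.58 CPM. Control 1 was highest here, and these genes made up 75.5% of its HOX counts (71.4% to 79.2%), against 5.90% to 34.3% in the other 7 libraries. The 15 genes of groups 4 to 8 summed to 8.64, 1.69, 7.30 and 2.06 CPM and to 2.47, 19.6, 2.30 and 14.5 CPM, high in the same 4 libraries as groups 9 to 13. Neither label was higher in all of its libraries for any of the position classes.

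Muscle marker shares were high where the sums of all HOX genes were low, but did not follow groups 1 to 3. Control 1 and control 3, with the highest muscle shares, had groups 1 to 3 at 9.54 and 1.58 CPM. Muscle markers took 3.43%, 4.18%, 13.2% and 13.1% of counts in knockdown 2, knockdown 4, control 1 and control 3, the 4 libraries with the lowest HOX sums, and 0.0038%, 0.0029%, 0.360% and 0.0028% in knockdown 1, knockdown 3, control 2 and control 4. Gland markers took 9.72% in knockdown 2 and 11.7% in control 1, the 2 libraries with the lowest posterior sums, and at most 0.00092% elsewhere. Fibroblast markers (10 of 10 matched and detected) were highest in control 2, at 1.24% of counts against 0.0383% to 0.398% in the others. Control 2 also had the highest HOX sum, but the other libraries did not follow that order. Control 3 was next, at 0.398%, with a HOX sum of 6.85 CPM. Knockdown 3 was lowest, at 0.0383%, with a HOX sum of 39.5 CPM. The part of these cell types in the HOX levels was not tested.

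**Figure D3:**
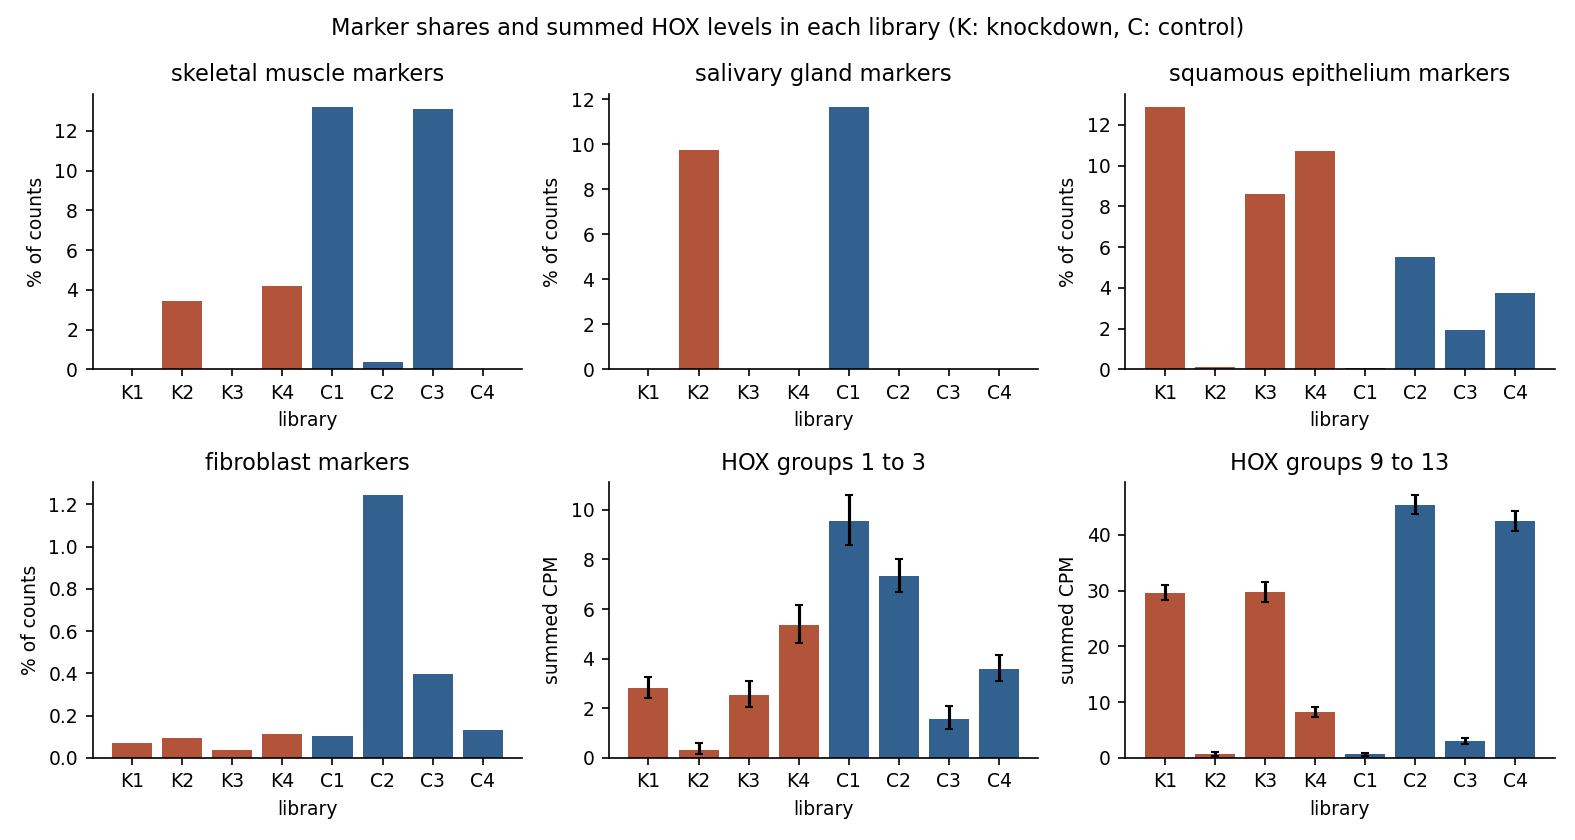
Percent of counts in 4 marker lists and the summed CPM of HOX groups 1 to 3 and 9 to 13 in each library (K, knockdown; C, control; bars on the HOX panels carry exact Poisson 95% intervals). Muscle markers are at 3.43% or more in K2, K4, C1 and C3, where posterior HOX sums are 8.20 CPM or less. Groups 1 to 3 are highest in C1, at 9.54 CPM.

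The HOXA cluster, known for the pharyngeal arches, lung, limb and reproductive tract, summed over its listed members to 2.72, 0.13, 1.70 and 3.40 CPM in knockdown 1 to 4 and to 4.68, 6.42, 1.18 and 10.15 CPM in control 1 to 4. Its most abundant member was HOXA3 (chromosome 7, 27106184 to 27152581, minus strand), needed for thymus and parathyroid. HOXA3 stood at 1.20, 0, 0.631 and 2.36 CPM and at 3.64, 2.25, 0.372 and 2.42 CPM. It was highest in control 1 and was not read in knockdown 2, and the groups overlapped. HOXA5, which acts in lung and trachea, stood at 0.664, 0, 0.494 and 0 CPM and at 0.326, 1.96, 0 and 0.884 CPM, with 3 libraries at 0.

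The 5′ end of the cluster was read mostly in control 4. HOXA10, a gene of the uterus and hind limb, stood at 0.316, 0, 0.0823 and 0.0274 CPM in knockdown 1 to 4, and in control 1 to 4 at 0, 0.631, 0.124 and 2.94 CPM. HOXA13, a gene of digits and the genital tubercle, was named after its values were seen: it stood at 0.0332, 0.0652, 0 and 0 CPM and at 0, 0.583, 0.496 and 1.96 CPM. Control 2, 3 and 4 lay above all libraries labelled knockdown for HOXA13, while control 1 was at 0. HOXA2, the gene of the second pharyngeal arch, reached 0.959 CPM in knockdown 4 and 0.707 CPM in control 1 and lay at or under 0.194 CPM elsewhere. HOXA4, HOXA6, HOXA7 and HOXA9 stayed at or under 0.247 CPM in all 8 libraries.

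In the HOXB cluster the sums were 4.90, 0.72, 2.93 and 1.97 CPM in knockdown 1 to 4 and 5.90, 10.9, 0.50 and 0.79 CPM in control 1 to 4. HOXB2 and HOXB3 set up hindbrain segments, and both were highest in control 1 and control 2. HOXB3 (chromosome 17, 48548870 to 48604912, minus strand) stood at 0.698, 0.0652, 0.576 and 1.18 CPM and at 3.32, 2.99, 0.062 and 0.231 CPM. HOXB2 stood at 0.116, 0.130, 0.247 and 0.521 CPM and at 1.20, 1.02, 0.186 and 0.0769 CPM. Their control libraries thus lay on both sides of the knockdown libraries. HOXB4, known from blood stem cells, was also highest in control 1, at 1.14 CPM against 0.0384 to 0.453 CPM elsewhere.

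HOXB7, a trunk gene often studied in carcinomas, had another pattern: 3.59, 0.196, 1.12 and 0 CPM in knockdown 1 to 4 and 0.0544, 5.47, 0.124 and 0.115 CPM in control 1 to 4. It reached 1 CPM in 3 libraries, and control 4 was not among them. HOXB1, HOXB5, HOXB6, HOXB9 and HOXB13 stayed at or under 0.356 CPM, and HOXB8 was at 0 throughout.

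In the HOXC cluster the range was widest, with sums of 11.1, 0.33, 14.7 and 5.40 CPM in knockdown 1 to 4 and 0.05, 33.1, 0.56 and 19.9 CPM in control 1 to 4. HOXC13 (chromosome 12, 53938765 to 53946544, plus strand) drives the keratin genes of hair, nail and the filiform papillae of the tongue. It stood at 5.48, 0.0652, 9.49 and 5.07 CPM and at 0, 12.4, 0.062 and 7.02 CPM. Knockdown 1, 3 and 4 and control 2 and 4 held HOXC13, and the other 3 libraries had at most 2 counts each. Per kilobase of exon HOXC13 had the highest mean level of all members, 2.04 CPM per kb, followed by HOXD10 at 2.00 and HOXD9 at 1.24 CPM per kb.

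The squamous markers gave no single picture beside HOXC13. Keratin 5 (KRT5), of the basal layer, stood at 19772, 274, 11502 and 5851 CPM in knockdown 1 to 4 and at 109, 16795, 5833 and 14186 CPM in control 1 to 4. Control 3, with 0.062 CPM of HOXC13, thus held about as much KRT5 as knockdown 4, with 5.07 CPM of HOXC13. Keratin 4 (KRT4), of the upper layers of mucosa, stood at 4730 CPM in control 3. It was lower in knockdown 3, control 2 and control 4, at 285, 290 and 405 CPM, which held HOXC13. Knockdown 1 and knockdown 4 also held HOXC13 and had more KRT4, at 11999 and 45264 CPM. KRT5 and KRT4 were picked from the list of 10 after their values were seen. KRT6A, KRT14, DSG3, S100A2 and SPRR1B were lower in control 3 than in each library that held HOXC13. So was KRT5, by a small margin, at 5833 CPM against 5851 CPM in knockdown 4. SPRR3, TP63, KRT13 and KRT4 were not. KRT6A stood at 691 CPM in control 3, against 9222 CPM in knockdown 4, the lowest library that held HOXC13. The whole list took 1.94% of counts in control 3, against 3.77% or more in the libraries that held HOXC13. The part of squamous content in the HOXC13 level was not tested.

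HOXC10 and HOXC11 act at lumbar and limb levels. HOXC10 stood at 2.31, 0, 0 and 0 CPM in knockdown 1 to 4, and in control 1 to 4 at 0, 6.21, 0 and 3.34 CPM, so it was read in only 3 libraries. HOXC11 stood at 0.781, 0, 2.47 and 0.164 CPM and at 0, 5.08, 0 and 1.98 CPM. Knockdown 3 thus held HOXC11 and no HOXC10. HOXC4, HOXC6, HOXC8 and HOXC9, genes of the neck and thorax, reached 3.53, 3.27, 3.21 and 1.89 CPM at most, in control 2 for HOXC4 and HOXC9 and in control 4 for the others. HOXC5 and HOXC12 stayed at or under 0.615 CPM.

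The HOXD cluster, best known for limb and digit patterning, had the highest sum of the 4 clusters in knockdown 1, knockdown 2, knockdown 3, control 3 and control 4; HOXC led in knockdown 4 and control 2, and HOXB in control 1. Its sums were 22.4, 1.50, 20.2 and 4.82 CPM in knockdown 1 to 4 and 2.01, 21.9, 4.62 and 29.7 CPM in control 1 to 4. HOXD10 (chromosome 2, 176108790 to 176119942, plus strand) led it in the high libraries. HOXD10 stood at 10.2, 0, 8.64 and 0.767 CPM and at 0.0816, 8.87, 0.434 and 14.0 CPM. Its values fell into 4 libraries above 8 CPM, 2 under each label, and 4 below 1 CPM.

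HOXD11 and HOXD13, neighbours of HOXD10 towards the 5′ end, were read in much the same libraries. HOXD11 stood at 3.5, 0, 2.5 and 0.0822 CPM in knockdown 1 to 4, and in control 1 to 4 at 0, 3.79, 0 and 2.33 CPM. HOXD13 stood at 2.76, 0, 0.247 and 0 CPM and at 0, 1.70, 0 and 3.94 CPM, so knockdown 3, which was high for HOXD10 and HOXD11, held little of it. HOXD12 stayed at or under 0.233 CPM.

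HOXD8 and HOXD9 were read in every library. HOXD8 (chromosome 2, 176129694 to 176132695, plus strand) stood at 1.36, 0.717, 1.73 and 1.37 CPM and at 0.435, 3.67, 1.27 and 5.94 CPM. HOXD9 (176122720 to 176124937) stood at 3.57, 0.456, 5.13 and 1.97 CPM and at 0.544, 2.56, 1.74 and 2.61 CPM. Neither shares an exon base with another annotated gene, and for both the lowest libraries were knockdown 2 and control 1, the ones rich in gland markers.

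HOXD3 was the only one of the 38 genes whose groups did not overlap in CPM of column totals, and they did overlap with the TMM scaling used in the test below. HOXD3 (176136612 to 176173102, plus strand), a gene of the neck vertebrae, stood at 0.349, 0.0978, 0.439 and 0.329 CPM in knockdown 1 to 4 and at 0.680, 0.712, 0.899 and 0.615 CPM in control 1 to 4. All 4 libraries labelled control lay above all 4 labelled knockdown, with means of 0.304 ± 0.145 and 0.727 ± 0.122 CPM (SD, n = 4). Among all genes tested, 498 of 21192 did not overlap between the groups, which is 2.35%, and of the 13 HOX genes tested 1 did not. With TMM-scaled library sizes (TMM adjusts totals for a few very abundant genes) HOXD3 stood at 0.585 CPM in knockdown 3 and 0.570 CPM in control 4, and 0 HOX genes and 535 genes tested (2.52%) did not overlap. Of the HOXD3 exon bases 74.1% are shared with another annotated gene, so its reads may in part be theirs or have gone uncounted. HOXD4, which shares 80.5%, reached 1.10 CPM in knockdown 3 and lay at or under 0.301 CPM elsewhere. The same limit holds to a lesser degree elsewhere: 21 of the 38 genes share over 5% of exon bases. Among them are HOXD10 (16.8%), HOXD11 (21.4%) and HOXA3 (17.9%).

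**Figure D4:**
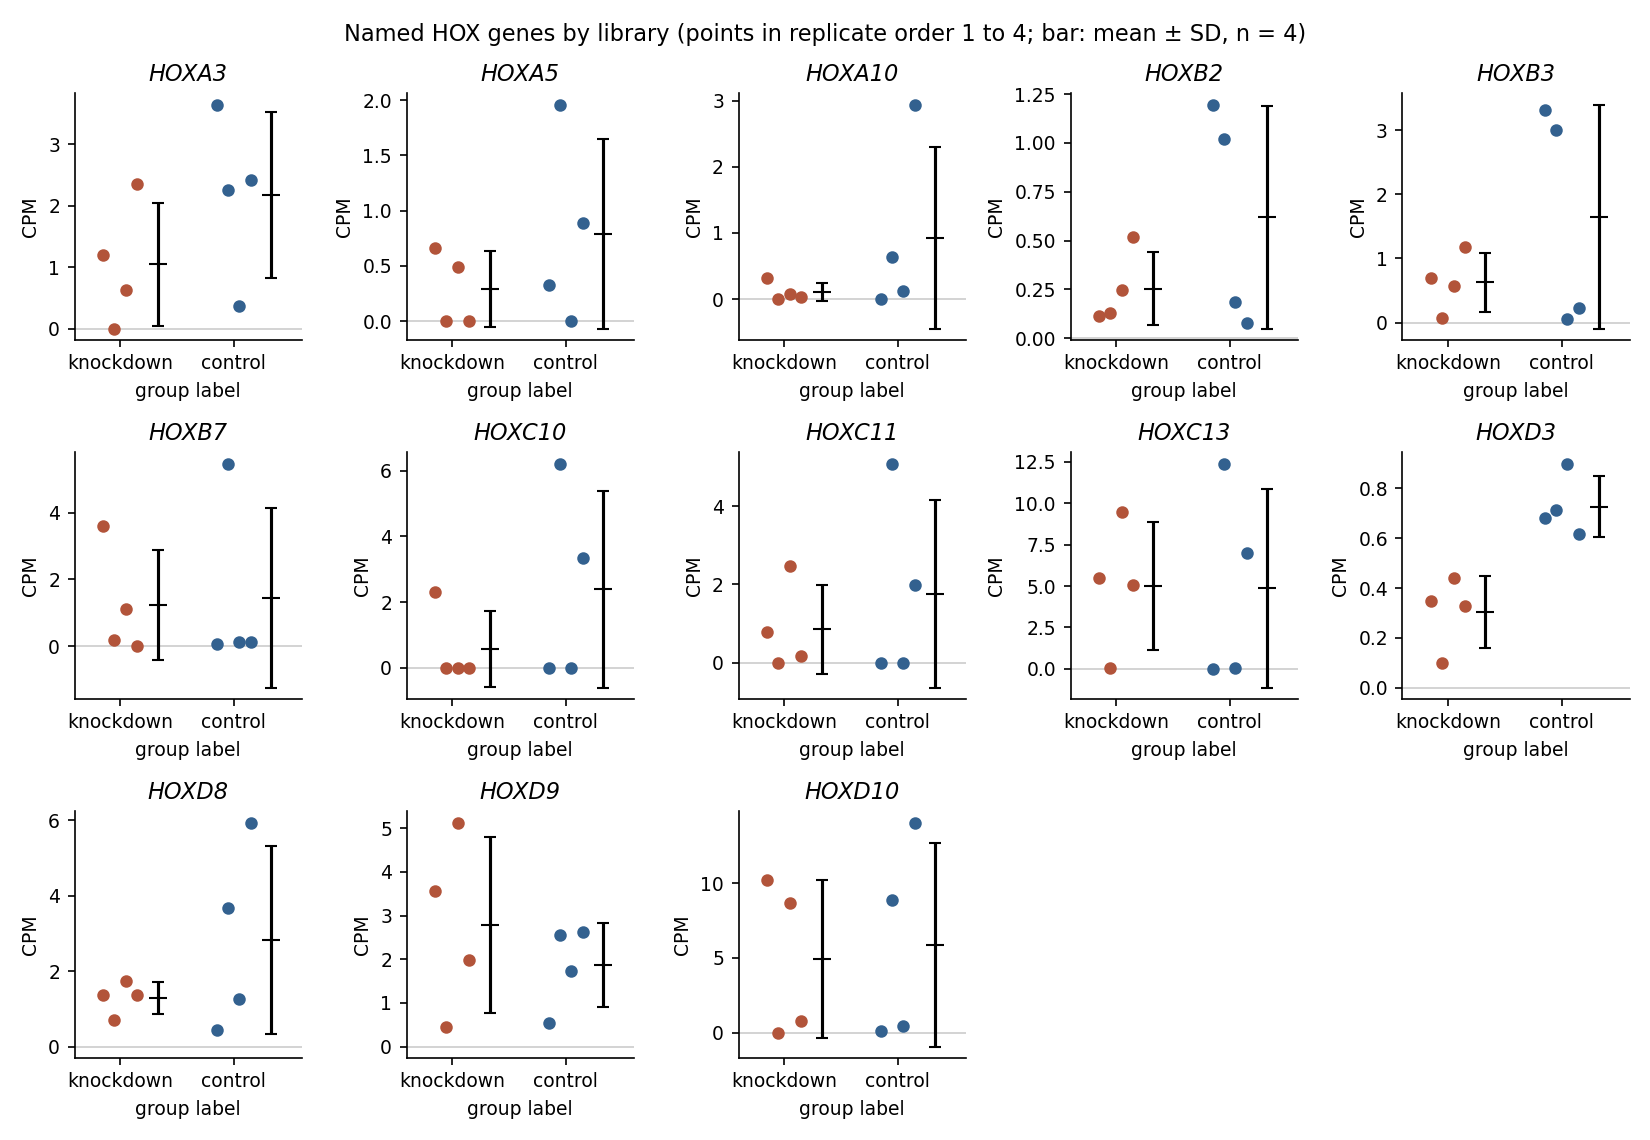
CPM of column totals of the 13 HOX genes given in full, by group label, with points in replicate order 1 to 4 and bars for mean ± SD (n = 4). HOXD3 is the only panel in which the groups do not overlap (0.0978 to 0.439 against 0.615 to 0.899 CPM); with TMM scaling they overlap.

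The comparison of labels asked whether si-Col1a1 shifted HOX expression. edgeR's quasi-likelihood test called no gene at a Benjamini-Hochberg adjusted p under 0.05: 0 of 21192 tested genes, which is 0%, and 0 of the 13 HOX genes that passed the filter on low counts. The other 25 HOX genes did not pass it and were not tested in this fit. At an unadjusted p under 0.05 there were 1013 genes (4.78%) and 0 of the 13 HOX genes. DESeq2 called 146 of 24821 genes (0.588%) and 0 of the 24 HOX genes to which it gave an adjusted p, and limma-voom called 0 genes. The HOX gene with the smallest DESeq2 p was HOXA13, which did not pass edgeR's filter, with a log2 fold change of -4.83 (DESeq2 adjusted p = 0.156). Without the filter edgeR gave it -4.70 (SE 1.48, Benjamini-Hochberg adjusted p = 0.773), and its unadjusted p was under 0.05 in both fits. That p was also under 0.05 in 5 of the 8 edgeR fits that left out 1 library. HOXA13 passed the filter in those 5 only through control 2, 3 and 4, and it was not tested in the others. Those fits are therefore not separate support for a difference. HOXA13 rested on 4 counts summed over the libraries labelled knockdown and 154 over those labelled control, with control 1 at 0.

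Of the 13 tested HOX genes 4 were fitted higher under the knockdown label and 9 lower, with a median log2 fold change of -0.83, against 9913 higher and 11279 lower and a median of -0.05 over all genes tested. None of these HOX estimates passed the test, and 13 genes that passed a filter are not all members. HOXD3 had the smallest edgeR p of the 13, with a log2 fold change of -0.98 (SE 0.59; edgeR, Benjamini-Hochberg adjusted p = 0.981). HOXD9 was fitted at 0.96 (SE 0.82) and HOXD8 at -0.83 (SE 0.78).

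The remaining estimates carried wide errors. The log2 fold change was 0.17 (SE 1.72) for HOXD10, 0.43 (SE 1.74) for HOXC13, 0.42 (SE 1.91) for HOXD11 and -0.58 (SE 1.87) for HOXC11. It was -0.96 (SE 1.19) for HOXA3, -1.05 (SE 1.55) for HOXA5, -1.29 (SE 1.24) for HOXB3 and -0.87 (SE 1.00) for HOXB4. HOXC6 and HOXC8 were fitted at -1.65 (SE 1.6) and -0.54 (SE 1.54). The median SE of the 13 was 1.54, against 0.61 over all genes tested. With such errors, a change of several fold in HOXD10 or HOXC13 was not detectable between these groups.

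**Figure D5:**
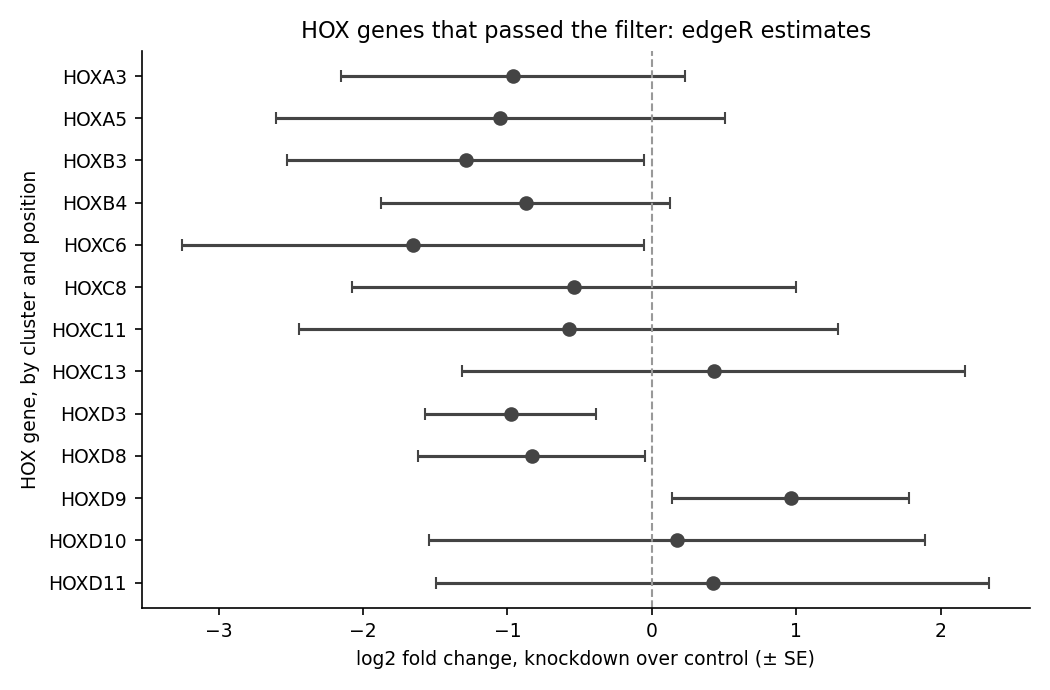
edgeR log2 fold change, knockdown over control, with its SE for the 13 HOX genes that passed the filter, ordered by cluster and position. Estimates lie between -1.65 for HOXC6 and 0.96 for HOXD9, and no gene passed an adjusted p of 0.05.

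Without the 4 libraries that held over 1% of their counts in muscle or gland markers, 2 libraries were left per group and 26 HOX genes were tested. HOXD10 then had a log2 fold change of 0.17 (SE 0.51), against 0.17 (SE 1.72) with 8 libraries. HOXC13 had one of 0.12 (SE 0.61), against 0.43 (SE 1.74). The libraries left out were chosen after seeing the data and were also the 4 with the lowest HOX sums, so the smaller errors are not separate support. HOXD3 moved to -0.28 (SE 0.78), and HOXD9 stood at 1.23 (SE 0.65). edgeR called 0 of the 26 genes. HOXA13 (edgeR, Benjamini-Hochberg adjusted p = 0.338) and HOXA11 (adjusted p = 0.449) alone were under an unadjusted p of 0.05. HOXA11 was named after its values were seen, and both were fitted lower under the knockdown label. Both passed the filter only through control 2 and control 4, where they were high, so their shared direction is not a separate result.

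None of the listed partners and regulators of HOX genes that were tested passed the test between labels. Their levels differed widely, with a mean of 337 CPM for KMT2C and of 0.143 CPM for CDX1, a caudal gene that switches on trunk HOX genes and did not pass the filter. Of the 11 TALE homeodomain cofactors, 11 were tested, 2 were fitted higher and 9 lower, with a median log2 fold change of -0.30. PBX2, a homeodomain partner of HOX proteins, stood at 55.5, 31.3, 29.6 and 49.3 CPM in knockdown 1 to 4 and at 36.0, 87.8, 54.3 and 71.2 CPM in control 1 to 4. The groups overlapped, and its log2 fold change was -0.37 (SE 0.35).

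Among the 25 Polycomb genes 7 were fitted higher and 18 lower (median -0.25), and among the 18 trithorax, MLL and H3K27 demethylase genes 8 were higher and 10 lower (median -0.04). Their most abundant members, the Polycomb genes RBBP4 (-0.26, SE 0.28) and PHC3 (-0.13, SE 0.32) and the H3K4 methyltransferases KMT2C (-0.01, SE 0.36) and KMT2D (0.04, SE 0.39), had narrow errors around a log2 fold change of 0. KMT2D ranged from 194 to 445 CPM over the 8 libraries, but other members varied more, such as CBX7, named after its values were seen, which ranged from 4.82 to 87.9 CPM.

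In the retinoic acid list 17 of 19 genes were tested, with 9 higher, 8 lower and a median of 0.00. CRABP2, which carries retinoic acid to its nuclear receptor, stood at 367, 18.4, 298 and 62.4 CPM in knockdown 1 to 4, and in control 1 to 4 at 5.46, 67.8, 46.8 and 344 CPM. It was lowest in knockdown 2 and control 1, and its log2 fold change was 1.09 (SE 1.23). The receptor RXRA was fitted at 0.11 (SE 0.46).

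Of 9 caudal and other upstream regulators 5 were tested, 2 higher and 3 lower (median -0.26). YY1 was fitted at -0.26 (SE 0.38). Of the 18 genes flanking the clusters 15 were tested, 3 higher and 12 lower (median -0.10), with CBX5 at -0.21 (SE 0.40) and HNRNPA1 at -0.08 (SE 0.37). Those neighbours stood at 66.5 to 283 CPM for CBX5 and 130 to 373 CPM for HNRNPA1 in every library, including the ones in which the adjacent HOXC genes were at 0.

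Most listed noncoding RNAs of the clusters were scarce. Of 27 listed 26 were matched and 4 tested, 2 higher and 2 lower (median -0.29). The list also held microRNA genes and PRAC1 and PRAC2, each at a mean of 0.00405 CPM or less. Its share that passed the filter is thus partly set by the choice of entries. HOXC13-AS, antisense to HOXC13, stood at 2.04, 0, 3.70 and 0.33 CPM in knockdown 1 to 4, and in control 1 to 4 at 0, 2.85, 0 and 4.38 CPM, nearly the same libraries as HOXC13. HAGLR, which starts beside HOXD1, stood at 1.21, 0.49, 0.80 and 1.53 CPM and at 0.65, 2.67, 1.18 and 3.65 CPM, with a log2 fold change of -0.78 (SE 0.66). Whether the counting used strand is not given in the sources used here, so reads of antisense partners cannot be told apart.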

How the data were processed

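RNA-seq was measured in 8 libraries, 4 labelled knockdown and 4 labelled control. The authors deposited whole-number read counts per Ensembl gene in 1 table of the whole series; STAR, featureCounts, Subread and hg38 stand in the submitters' processing notes, and their versions, the annotation, the strand setting and the layout were not stated. Columns were matched to samples by name and replicate number; the column names say knockout where the titles say knockdown. Levels are CPM of column totals (30684584 to 61795990 counts). The test was edgeR 4.0.16's quasi-likelihood fit (R 4.3.3) with TMM factors (0.75 to 1.19) and edgeR's own filter, Benjamini-Hochberg adjusted over 21192 genes; SE is the log2 fold change divided by the square root of F. It was tested on simulated counts. Alternatives used DESeq2 1.42.0, limma 3.58.1, other scalings and filters, the replicate number as a block, and libraries left out. Exon lengths and overlaps came from GENCODE 29, promoters from RefSeq. Intervals cover counting error only. Given in full are the 3 highest members per cluster by mean CPM, any with a mean of 5 CPM, and any with p under 0.05 or groups that did not overlap; of the other lists, the 2 highest, some of which are not reported here. The members and lists were chosen with earlier results of these data known.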

Additional observations from a re-analysis of the deposited data

Results flagged for a closer look

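The named HOX genes and the cluster sums were checked in each group of 4, 34 values in all. In 2 of 34, 1 library stood far from the other 3 by Dixon's test at the 95% level. For normally distributed values chance alone gives about 1 in 20, a rate that need not hold for counts near 0. HOXB7 stood at 5.47 CPM in control replicate 2, against 0.0544, 0.124 and 0.115 CPM in the other libraries labelled control. HOXC10 stood at 2.31 CPM in knockdown replicate 1, while the other 3 libraries labelled knockdown had no count. With those 3 at 0 the test flags any value above 0, so the flag says nothing about its size.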

How the results depend on the processing

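No HOX gene was called under any alternative run. The count of called genes was 0 in the main edgeR test, 146 with DESeq2, and 0 to 1 when each library was left out in turn (1 without knockdown replicate 2); the cause was not tested. With the replicate number as a block it was 0. Same-numbered libraries deviated in opposite directions (correlations -0.66, -0.48, -0.37 and -0.40, with 0 of 4 best with their own number), so the numbers gave no sign of pairing. Muscle, gland and squamous content differed widely between libraries and could hide a shared culture or run. Pairing is therefore not excluded. Under the block HOXC11 turned from -0.58 to 0.63 and HOXC13 moved to 2.97. HOXC11 ranged from -2.15 to 0.79 over libraries left out, positive only without control 2, and HOXC13 from -0.24 (without knockdown 3) to 1.43. HOXD10 turned to -0.59 with limma-voom and -0.26 with library totals, and ranged from -0.42 to 1.08 over libraries left out: -0.42, -0.34, -0.24 and -0.22 without knockdown 1, knockdown 3, control 1 and control 3. Library totals moved the median of all genes from -0.05 to -0.21. At 0.5 CPM in place of 1 CPM the number of HOX genes was 1, 13, 8 and 7 in knockdown 2, 3, 4 and control 1; at 2 CPM it was 5, 2, 2 and 0 in knockdown 3, 4, control 1 and control 3. HOXD3 kept its direction from -1.32 to -0.28, the latter without the 4 libraries rich in muscle or gland markers, an alternative chosen after seeing the data. Single libraries carried the control means: without control 2 the HOXC mean went from 13.4 to 6.85 CPM and the HOXB mean from 4.52 to 2.39 CPM, and without control 4 the HOXD mean went from 14.6 to 9.51 CPM. Without the 4 rich libraries the HOXC means were 12.9 (knockdown) and 26.5 CPM (control) and the HOXD means 21.3 and 25.8 CPM. With TMM scaling, also chosen after seeing the data, 0 HOX genes in place of 1 had groups that did not overlap. HOX counts of 82 to 4472 per library limit what can be seen.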

Other observations

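MEIS1, a HOX partner chosen here after its values were seen, stood at 30.2, 57.2, 5.40 and 36.3 CPM in knockdown 1 to 4 and at 33.7, 40.1, 66.2 and 8.92 CPM in control 1 to 4. Knockdown 3 and control 4 were lowest, while both held HOXD10 above 8 CPM. Knockdown 1 and control 2 also held HOXD10 above 8 CPM, with MEIS1 at 30.2 and 40.1 CPM. ALDH1A2, which makes retinoic acid, stood at 0.581, 7.36, 0.658 and 2.33 CPM and at 9.05, 0.680, 9.24 and 0.211 CPM, highest in knockdown 2 and 4 and control 1 and 3, the libraries rich in muscle markers. HOTAIR, a noncoding RNA of the HOXC cluster, reached 1.62 CPM in control 2 and lay at or under 0.439 CPM in the other 7 libraries. The microRNA genes of the clusters are not compared here.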
